A study of Mus musculus with 3 samples.

Results

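Caspases are proteases that cut their targets after aspartate. Of the family's mouse genes, 6 are described here across CD8+ T cells with and without the type II TGF-β receptor: Casp1 and Casp4, grouped as inflammatory caspases, and Casp2, Casp6, Casp8 and Casp9, grouped as apoptotic caspases. The members were chosen by gene symbol, as every probe set that the platform annotation gives exactly 1 symbol and whose symbol is one of these. The list of 6 symbols was drawn up with earlier results of these data known. That gave 6 genes of 18193 and 9 probe sets of 34945 with a single symbol. Of the 9 probe sets, 2 belong to the inflammatory and 7 to the apoptotic caspases, and all 6 genes had at least 1 probe set measured on all 3 arrays. Other caspases of the apoptotic pathway are not analysed here.

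Sorted CD8+ T cells of mice were profiled on Affymetrix whole-genome expression arrays, 1 array in each of 3 groups, which differ in the TGF-β receptor and in NK1.1, a surface receptor of natural killer (NK) cells. The NK1.1+ KO and the NK1.1− KO groups are the NK1.1+ and NK1.1− CD8+ cells of Tgfbr2 fl/fl x CD4-Cre mice aged 15 to 17 days. The control group is CD8+ cells of littermates, Tgfbr2 fl/wt x CD4-Cre. All groups carry the Cre transgene under the CD4 promoter, which acts in T cells from the thymic stage that expresses Cd4, so control cells can also have lost 1 copy of the receptor gene. The sample title and the end of the design text call the control cells NK1.1−, and another sentence of that text calls them total CD8+ cells. Neither the labels nor the design text say how many mice an array drew on. With 1 array per group no spread between mice could be measured, no test was made, and every difference below is between 2 arrays. In bulk RNA, fewer cells of a type and less RNA per cell cannot be told apart.

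Inflammatory caspases are activated in inflammasomes, complexes in which a sensor of microbial or cell damage signals recruits pro-caspase-1, often through the adaptor ASC. Caspase-1 then matures interleukin-1β and interleukin-18 and cuts gasdermin D, whose released part forms pores in the membrane. The mouse gene Casp4 encodes the protein long known as caspase-11, which is activated by bacterial lipopolysaccharide in the cytosol and also cuts gasdermin D. Apoptotic caspases act in a chain: caspase-8 starts it at death receptors, caspase-9 starts it on the apoptosome after release of cytochrome c from mitochondria, caspase-2 is activated on the PIDDosome, and caspase-6 is an executioner that cuts nuclear lamins. In T cells caspase-8 is also needed for expansion after antigen, and it restrains necroptosis, a lytic death run by RIPK3 and MLKL.

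Casp1 and Casp4 lie next to each other on mouse chromosome 9, followed by Casp12, and were the only members far above control, so their promoters are shown. Each runs from 250 bases before to 50 bases after a start site of the RefSeq annotation of GRCm38.p6, on the + strand, at chr9:5298267-5298566 for Casp1 and at chr9:5308599-5308898 for Casp4, which has 2 starts in that table, the upstream one being shown. Capitals mark matches to the NF-κB (kappaB) consensus.

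Casp1: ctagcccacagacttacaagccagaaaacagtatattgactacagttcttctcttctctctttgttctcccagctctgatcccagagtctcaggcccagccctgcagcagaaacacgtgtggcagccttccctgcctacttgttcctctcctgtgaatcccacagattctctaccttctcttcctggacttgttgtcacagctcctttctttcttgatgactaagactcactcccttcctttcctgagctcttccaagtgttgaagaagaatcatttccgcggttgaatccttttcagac

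Casp4: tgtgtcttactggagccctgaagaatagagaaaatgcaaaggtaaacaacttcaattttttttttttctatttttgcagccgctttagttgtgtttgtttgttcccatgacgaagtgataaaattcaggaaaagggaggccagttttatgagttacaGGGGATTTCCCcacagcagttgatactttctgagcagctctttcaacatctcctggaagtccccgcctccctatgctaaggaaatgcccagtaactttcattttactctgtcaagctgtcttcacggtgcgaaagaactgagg

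Motifs were sought on both strands of these windows for all 6 genes. They were the STAT site TTCNNNGAA, the interferon-stimulated response element GAAANNGAAA, the kappaB consensus, the palindromic Smad box GTCTAGAC and the T-box site AGGTGTGA. The Casp4 window held 2 overlapping kappaB matches, starting 93 and 92 bases before the start site, and 4.35% of 27025 promoters of the same length hold such a match. The Casp1 window and those of the 4 apoptotic caspases held none of the 5 motifs, which are present in 8.47% (STAT), 3.49% (interferon), 0.211% (Smad) and 1.27% (T-box) of promoters besides the kappaB share. A match is a string of letters and says nothing about binding.

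The values are probe set intensities on a linear scale after GCRMA, and a value counted as measured from 9.66 upward, the 95th percentile of 145 probe sets of genes restricted to other tissues. Log2 differences were taken after raising lower values to that level, and a gene was called at a difference of 2-fold. The number of measured genes was 10088, 9713 and 9595 for the NK1.1+ KO, NK1.1− KO and control arrays. The median log2 value of genes measured on all arrays was -0.44 relative to control there and 0.05 relative to control on the NK1.1− KO array, and the 3′ to 5′ ratio of Actb was 81.9, 12.3 and 6.02 on the NK1.1+ KO, NK1.1− KO and control arrays. That of Gapdh ran otherwise, at 10.8, 26.7 and 17.8, lowest on the NK1.1+ KO array. Over all genes, 1034 were called higher and 2398 lower in NK1.1+ KO against control, which became 1800 and 1500 after centring each array on that median and 1293 and 1903 after quantile normalization. For NK1.1+ KO against NK1.1− KO the split of 683 higher and 2222 lower became 1454 and 1098, and 922 and 1659. How far probe sets of 1 gene disagreed in their log2 difference was summarised as a pooled SD, 0.85 and 0.44 when NK1.1+ KO and NK1.1− KO cells were set against control and 0.765 when they were set against each other. The brightest Tgfbr2 probe set read 1808, 1271 and 2634 in NK1.1+ KO, NK1.1− KO and control cells, and whether it lies in the deleted part is not stated. The probe set shared by Klrb1b and the NK1.1 gene Klrb1c read 1618, 52.7 and 7.09.

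Inflammatory caspase transcripts were far above control in receptor-deficient CD8+ cells of both NK1.1 fractions, and apoptotic caspase transcripts were not. Calls in NK1.1− KO against control were 2 of 6 higher, Casp1 and Casp4, where 7.98% of 10057 measured genes were higher, and 1 of 6 lower, Casp8, where 5.56% were lower. The same 2 were called higher in NK1.1+ KO against control, against 9.73% of 10624 genes, and 2 were called lower, Casp6 and Casp8, against 22.6%. These comparisons share the control array. The median log2 difference of the inflammatory caspases was 3.79 in NK1.1− KO against control, and that of the apoptotic caspases -0.61, with 0.01 over all measured genes. These medians were 3.06 and -1.15 in NK1.1+ KO against control, with -0.17 over all measured genes. The gap between the classes was therefore 4.40 and 4.21 on the log2 scale. On either array pair the 2 inflammatory caspases lay above the 4 apoptotic ones. The members were chosen with earlier results of these data known, so the gap describes these 6 genes only.

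**Figure D1:**
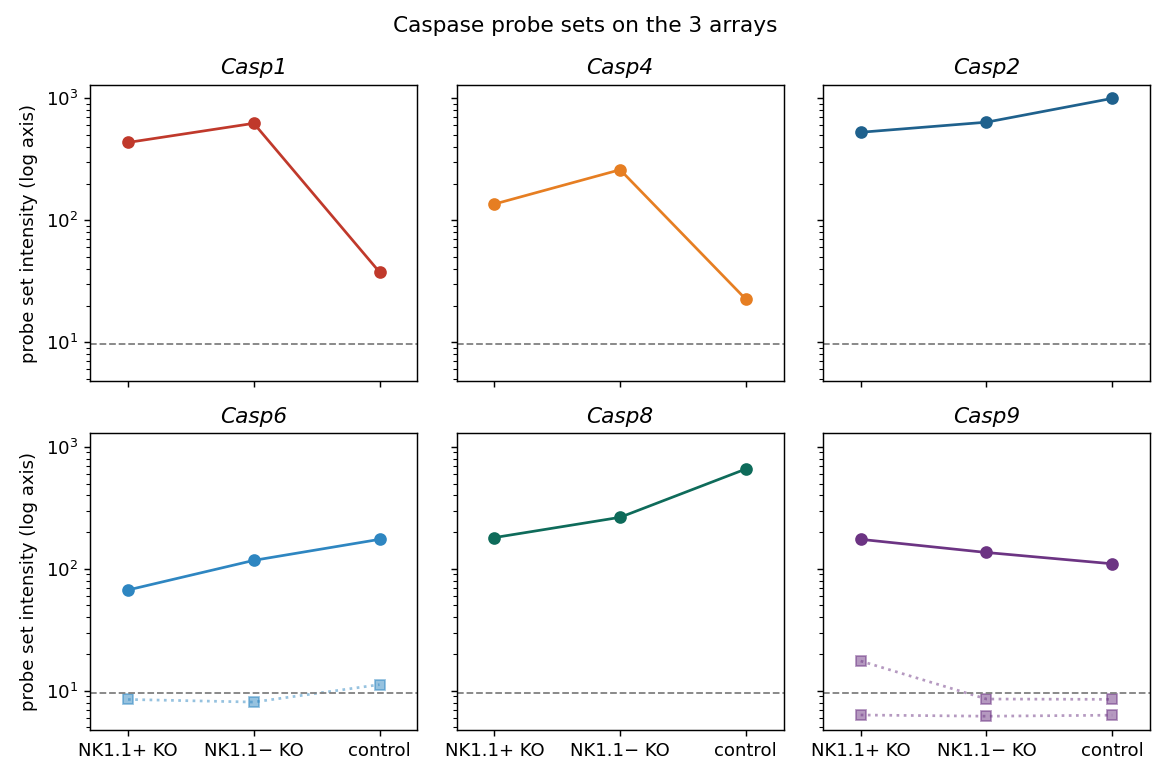
Intensity of each caspase probe set (log axis) on the NK1.1+ KO, NK1.1− KO and control arrays. Circles and solid lines are the brightest probe set of a gene, squares and dotted lines the others, lines join the values of a probe set, and the dashed line is the measured level of 9.66. Casp1 and Casp4 are lowest in control cells, Casp2, Casp6 and Casp8 highest.

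Casp1 encodes caspase-1. Its probe set read 434 in NK1.1+ KO cells and 623 in NK1.1− KO cells, against 37.6 in control cells. Both receptor-deficient fractions were high and the control array was low though above the measured level. The log2 difference to control was 3.53 (11.6-fold) in NK1.1+ KO and 4.05 (16.6-fold) in NK1.1− KO cells. Only 15 of 10057 measured genes, Casp1 included, were as high or higher in NK1.1− KO against control, and 112 of 10624 in NK1.1+ KO against control.

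Casp4 encodes the lipopolysaccharide-activated caspase-11 of the mouse. It read 136 in NK1.1+ KO cells and 259.6 in NK1.1− KO cells, against 22.5 in control cells. As for Casp1, control cells were the lowest. The log2 difference to control was 2.59 (6.03-fold) in NK1.1+ KO and 3.53 (11.5-fold) in NK1.1− KO cells. Of the measured genes, Casp4 included, 222 were as high or higher in NK1.1+ KO against control and 27 in NK1.1− KO against control. Casp1 and Casp4 each have 1 probe set, so no other probe set of the gene checks these values.

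The genes on either side of the pair were near or below the measured level. Casp12, the next caspase gene downstream, read 11.1 in NK1.1+ KO cells by its brighter probe set, just above the measured level, and 6.53 and 6.24 in NK1.1− KO and control cells. The 3 probe sets of Gria4, a glutamate receptor gene on the other side, were below the level on every array. Of the other caspase genes listed, Casp14 was below it on every array too.

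Casp8 encodes the initiator of death receptor signalling. It read 180 in NK1.1+ KO cells and 264 in NK1.1− KO cells, against 658 in control cells. Control cells were the highest. The log2 difference to control was -1.87 (3.65-fold lower) in NK1.1+ KO and -1.32 (2.49-fold lower) in NK1.1− KO cells, and -1.43 in NK1.1+ KO after centring. As low or lower were 795 of 10624 genes in NK1.1+ KO against control and 271 of 10057 in NK1.1− KO against control. Casp8, too, has a single probe set.

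Casp6 encodes an executioner. Its brighter probe set read 67.0 in NK1.1+ KO cells and 117 in NK1.1− KO cells, against 174 in control cells. Control cells were again the highest. The log2 difference to control was -1.38 in NK1.1+ KO (called lower), which was -0.94 after centring and no longer called, and -0.57 in NK1.1− KO, not called. The other Casp6 probe set reached the measured level in control cells alone, with 11.2.

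Casp2, activated on the PIDDosome, also read highest in control cells, though it was not called. Its probe set read 527 in NK1.1+ KO cells and 637 in NK1.1− KO cells, against 998 in control cells. The log2 differences to control were -0.92 and -0.65 in that order of the KO groups. Against NK1.1− KO it read -0.27 in NK1.1+ KO cells, with 0.21 after centring.

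Casp9, the apoptosome's initiator, was the one apoptotic caspase with its highest value in NK1.1+ KO cells. Its brightest probe set read 174 in NK1.1+ KO cells and 136 in NK1.1− KO cells, against 109.9 in control cells. The log2 differences to control were 0.67 and 0.31, neither called, and centring put the NK1.1+ KO value at 1.11, past 2-fold. Another Casp9 probe set read 17.5 in NK1.1+ KO cells and was below the level on the other arrays, and the remaining one was below it on all arrays.

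**Figure D2:**
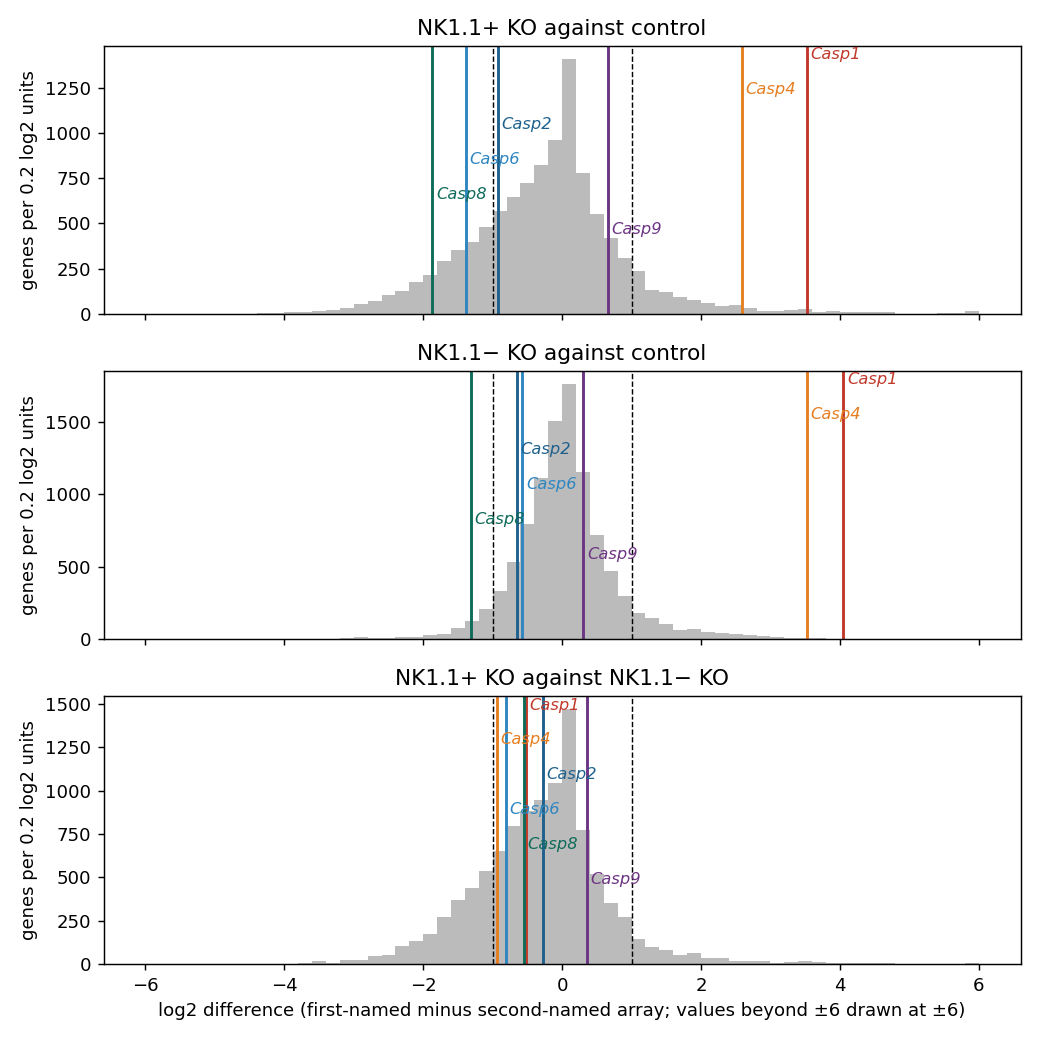
Distribution of log2 differences over all measured genes (grey bars, number of genes per 0.2 log2 units) for each pair of arrays, with the 6 caspases as coloured lines and the 2-fold threshold as dashed lines. Casp1 and Casp4 lie in the upper tail of both comparisons with control, at 3.53 and 2.59 in NK1.1+ KO and at 4.05 and 3.53 in NK1.1− KO cells, and between the KO arrays all 6 genes lie within the thresholds.

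Between the KO fractions none of the 6 genes was called, with 6.43% of 10618 measured genes called higher and 20.9% lower. Casp1 differed by -0.52 and Casp4 by -0.93 on the log2 scale in NK1.1+ KO against NK1.1− KO cells, where the median gene differed by -0.24. After centring these differences were -0.04 and -0.45. Casp6 differed by -0.81, Casp8 by -0.55 and Casp9 by 0.36, and by -0.32, -0.07 and 0.84 after centring. The classes were not apart here: their medians were -0.73 (inflammatory) and -0.41 (apoptotic).

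Other cell types express inflammatory caspases, macrophages among them, and their markers differed between the arrays. Of 14 monocyte, macrophage and granulocyte markers on the array, the NK1.1+ KO, NK1.1− KO and control arrays measured 11, 9 and 8, with summed values of 24272, 1005 and 608. Of the 11 markers measured in NK1.1+ KO or control cells, 9 were called higher and 0 lower, against 9.73% and 22.6% of all measured genes. Csf1r, the receptor of macrophage colony-stimulating factor, read 7666 in NK1.1+ KO cells and 30.5 in control cells. Of 9 measured in NK1.1− KO or control cells, 0 were called, and Csf1r read 54.5 and 30.5, Lyz1 647 and 339, and Cd14, Fcgr1, Itgam, C1qa and C1qc were below the measured level on both arrays. The part of these cells in the NK1.1+ KO values of Casp1 and Casp4 was not tested.

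Of 7 dendritic cell markers, 4 were measured on each array, with summed values of 1842, 442 and 554 in NK1.1+ KO, NK1.1− KO and control cells. Of these 4, H2-Aa and Cd74 were called higher in NK1.1+ KO against control and 0 in NK1.1− KO. Flt3, Xcr1 and Siglech were below the measured level on all arrays. Of all measured genes, 9.73% were called higher and 22.6% lower in NK1.1+ KO against control. In NK1.1− KO against control the shares were 7.98% and 5.56%. The 7 B and plasma cell markers summed to 2616, 497 and 384 in NK1.1+ KO, NK1.1− KO and control cells. Jchain alone read 2282, 16.0 and 15.9. Of the 4 measured, 2 were called higher (Jchain and Cd22) and 1 lower (Cd79b) in NK1.1+ KO against control, and 1 higher (Cd22) and 2 lower (Ms4a1 and Cd79b) in NK1.1− KO against control. All 7 CD8 T cell markers on the array were measured in every group. Of these, 6 were called lower in NK1.1+ KO against control, Cd3e being the exception, and the count was 5 after centring, whereas in NK1.1− KO only Cd5 was called lower. The summed values were 3939, 7928 and 12031. The part of the T cell share of RNA in the values of Casp2, Casp6 and Casp8 was not tested. NK cell markers, with summed values of 3260, 2228 and 637, were called higher for 3 of 4 measured in NK1.1+ KO against control. These were Klre1, Tyrobp and Fcer1g. In NK1.1− KO against control it was 3 of 3, namely Klre1, Tyrobp and Eomes. Ncr1 was below the measured level on all arrays. Between the KO arrays Klre1, Tyrobp and Fcer1g were called higher and Eomes lower. Of 6 fibroblast and endothelial markers, 1, 0 and 1 were measured in NK1.1+ KO, NK1.1− KO and control cells. Against control, Dcn was called higher in NK1.1+ KO cells, by at least 3.33 on the log2 scale. Pecam1 was called lower in both KO groups, at -2.26 or beyond. The 2 CD4 T cell markers summed to 187, 396 and 364 in the same order, and no erythroid marker was measured.

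**Figure D3:**
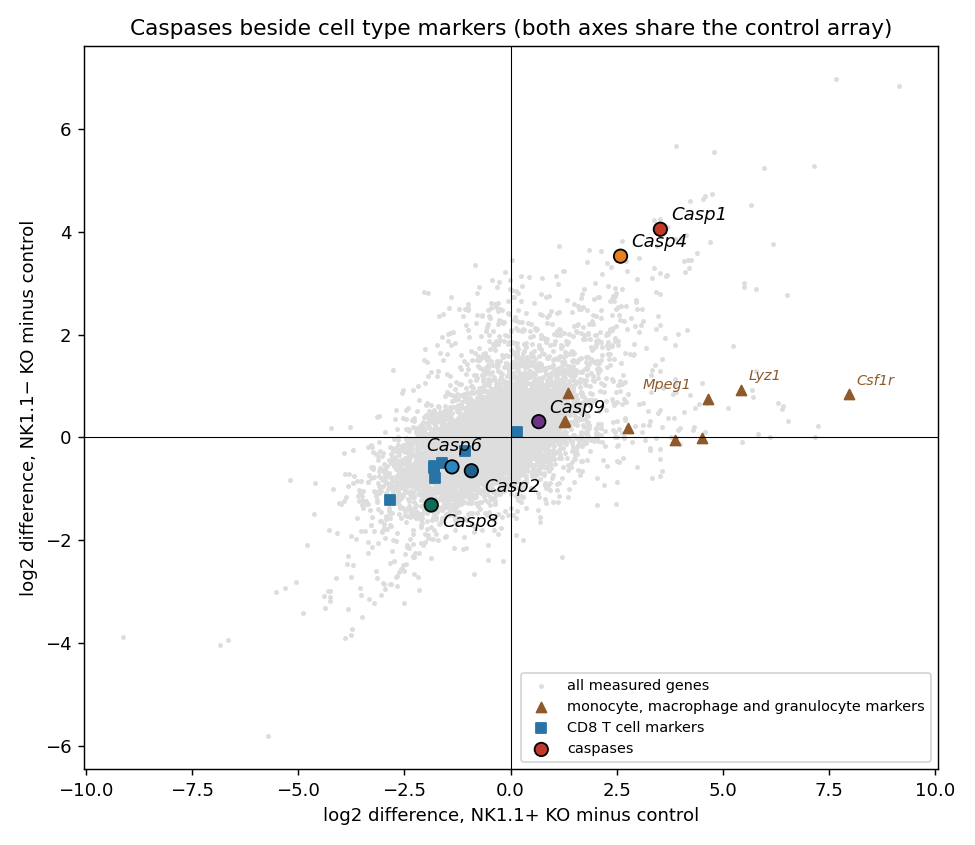
Log2 difference to control in NK1.1+ KO cells (horizontal) and in NK1.1− KO cells (vertical) for all genes measured in both comparisons (grey), monocyte, macrophage and granulocyte markers (triangles), CD8 T cell markers (squares) and the 6 caspases (circles). Both axes use the control array, so values along the diagonal are in part shared by construction. Casp1 and Casp4 are high on both axes, while Csf1r, at 7.97 and 0.84, is high on the horizontal one.

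Genes were sought whose pair of log2 differences to control lay nearest to each caspase's, among 8573 genes measured on all arrays. Plek, which encodes the actin-linked platelet and leukocyte protein pleckstrin, was nearest to Casp1 at a distance of 0.16, reading 1862 and 2489 in NK1.1+ KO and NK1.1− KO cells and 145 in control cells. Itgax, encoding the integrin CD11c, followed at 0.23 with 104, 187 and 9.88. For Casp4 they were Ryk, a Wnt receptor gene, at 0.29, and Ncald at 0.31. Casp4 itself lay 1.07 from Casp1, with 17 genes nearer to Casp1. The apoptotic caspases had closer neighbours, within 0.083: Ipcef1 and Ecd for Casp2, Nfkb2 and Ppox for Casp6, Dbp and Znrf1 for Casp8, and Zfp758 and Ptpn18 for Casp9. Few genes lie as far from control as Casp1 and Casp4, so these distances cannot be compared between the classes. With 3 arrays a likeness of this kind rests on 2 differences per gene.

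Of the inflammasome sensors and adaptors, 4 of 11 measured were called higher and 0 lower in NK1.1− KO against control (median log2 difference 0.67), and 4 of 12 higher and 0 lower in NK1.1+ KO against control (0.64). They were the NAIP genes Naip2, Naip5 and Naip6, whose proteins bind bacterial flagellin and secretion system parts, and Gbp3, a guanylate-binding protein gene. Naip5 read 285 in NK1.1+ KO cells and 68.2 in NK1.1− KO cells, against 16.0 in control cells, and Naip6 read 124 and 50.8, against 16.7. Naip2 read 91.6 and 74.1, against 26.9, and Gbp3 1676 and 2982, against 753. The NAIP genes are paralogues, and whether their probes share RNA was not tested. Between the KO arrays Naip5 and Naip6 were called higher too, at 2.06 and 1.28 on the log2 scale, and the part of the monocyte and macrophage markers in these values was not tested. Pycard, which encodes ASC, read 1263 and 2862, against 1543. Between the KO arrays its log2 difference was -1.18, called lower, with -0.70 after centring and -0.10 by another probe set. Centring raised the number called higher in the NK1.1+ KO comparison with control to 7 of 12. Over all genes it raised the share called higher from 9.73% to 15.2%. In NK1.1− KO against control that share was 7.98% as reported.

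The list of inflammatory caspase substrates, which also holds related genes such as Il1rn and Ninj1, had calls in both directions in NK1.1+ KO against control only. Of 6 measured, 2 were called higher and 1 lower in that comparison (median 0.45). Of 5 measured in NK1.1− KO against control, 1 was called higher and 0 lower (0.002). Over all measured genes, 9.73% were called higher and 22.6% lower in the first comparison, and 7.98% and 5.56% in the second. Il18 read 46.8 in NK1.1+ KO cells and 26.8 in NK1.1− KO cells, against 10.8 in control cells, close to the measured level. Il1b was measured in NK1.1+ KO cells only, at 20.5, at least 2.13-fold above control. Gsdmd, encoding gasdermin D, went the other way and read 66.7 and 168, against 212, called lower in NK1.1+ KO cells (-1.67) but not in NK1.1− KO cells (-0.34).

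In the caspase-8 complex, Fasl, which encodes the death ligand FasL, had the largest difference to control. It was the only one of 12 measured genes called in NK1.1− KO against control, reading 1285 in NK1.1+ KO cells and 815 in NK1.1− KO cells, against 75.2 in control cells. Of 11 measured in NK1.1+ KO against control, 1 was called higher and 2 lower, and the median log2 differences were 0.01 there and 0.30 in NK1.1− KO. Centring turned that balance in NK1.1+ KO to 4 of 12 higher (Fasl, Tnfrsf1a, Fadd and Casp8ap2) and 1 lower (Ripk3), with a median of 0.37. It shifts every gene of the array, and over all genes the shares went from 9.73% to 15.2% higher and from 22.6% to 12.7% lower. In NK1.1− KO against control, 7.98% of all measured genes were called higher and 5.56% lower. Ripk3, the kinase of necroptosis, read 51.3 in NK1.1+ KO cells and 326 in NK1.1− KO cells, against 324 in control cells, a difference to control of -2.66 and 0.01. The low Ripk3 value was thus on the NK1.1+ KO array alone, and it has 1 measured probe set. Traf2, an adaptor of TNF receptors, read 81.0 and 193, against 196, and its NK1.1+ KO difference of -1.27 was -0.83 after centring. Cflar, the neighbour of Casp8 on chromosome 1 and the gene of its inhibitory relative FLIP, read 324 and 371, against 625, by its brightest probe set. Its probe sets disagreed in NK1.1+ KO against control, from -0.95 to 0.90, and ran from -0.91 to -0.25 in NK1.1− KO against control.

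**Figure D4:**
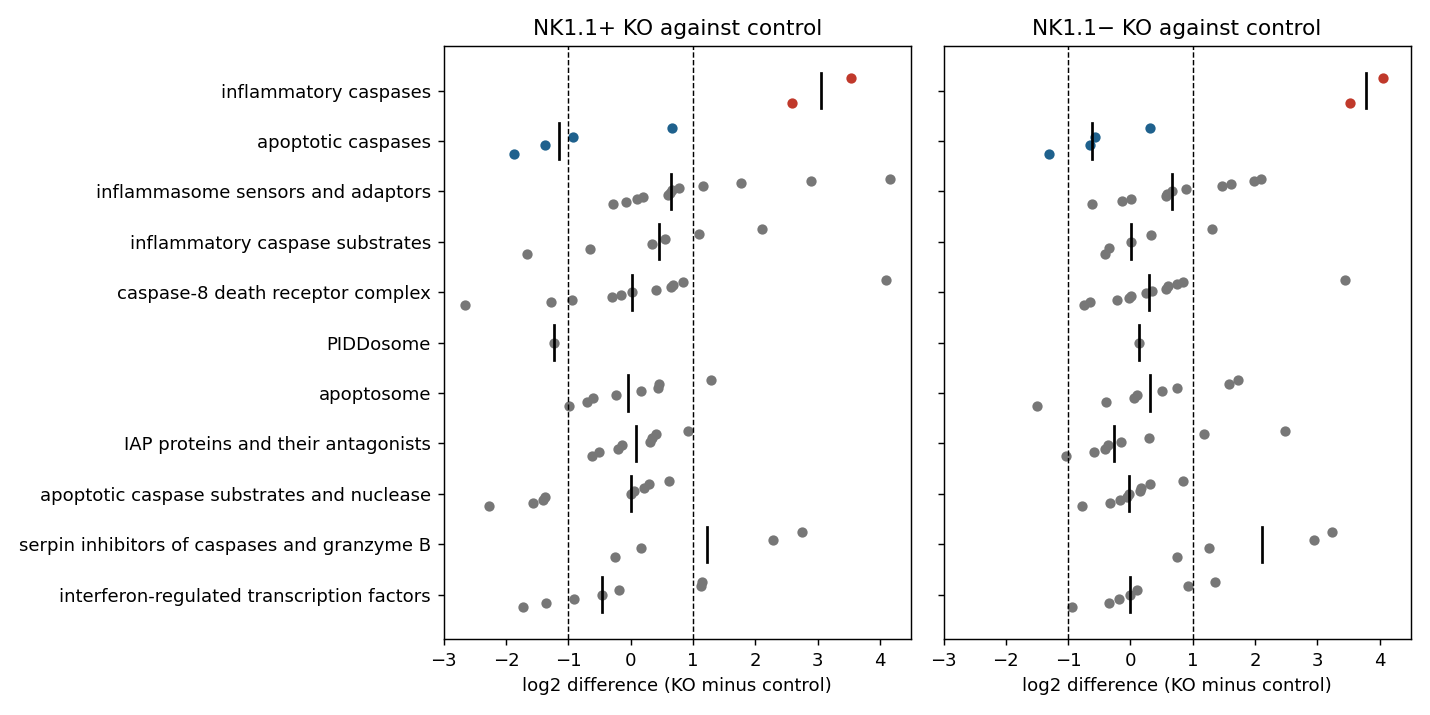
Log2 difference to control of each measured gene of the pathway lists in NK1.1+ KO cells (left) and NK1.1− KO cells (right), 1 point per gene. Black bars are list medians and dashed lines the 2-fold threshold. The inflammatory caspases have medians of 3.06 and 3.79 and the apoptotic caspases of -1.15 and -0.61.

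Of the apoptosome genes and the mitochondrial regulators listed with them, 1 of 8 measured was called higher and 0 lower in NK1.1+ KO against control (median -0.04). Of all measured genes, 9.73% were called higher and 22.6% lower there. In NK1.1− KO against control 2 of the 8 were called higher and 1 lower (0.31), against 7.98% and 5.56% of all measured genes. Apaf1, the scaffold on which caspase-9 assembles, read 485 in NK1.1+ KO cells and 594 in NK1.1− KO cells, against 198 in control cells, and was called higher in both. A dimmer Apaf1 probe set differed by 0.33 in NK1.1− KO against control. Bak1, a pore-forming death protein's gene, read 15.6 and 45.8, against 13.9, and Bcl2, encoding the survival protein, 700 and 494, against 1395.

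For caspase-2 the partners could not be followed, since Pidd1 and Cradd were below the measured level on all arrays and only Madd of that list was measured, a death-domain protein gene that is no PIDDosome subunit. Madd read 643 in NK1.1+ KO cells and 1655 in NK1.1− KO cells, against 1501 in control cells. Among IAP proteins, which bind or ubiquitinate caspases, and their antagonists, 0 of 8 measured genes were called in NK1.1+ KO against control (median 0.08), with Birc6 past 2-fold after centring. In NK1.1− KO against control 2 were called higher and 1 lower (-0.26). Of all measured genes, 9.73% were called higher and 22.6% lower in NK1.1+ KO against control, and 7.98% and 5.56% in NK1.1− KO. Birc5, encoding survivin, a protein of dividing cells, read 34.7 in NK1.1+ KO cells and 223 in NK1.1− KO cells, against 39.8 in control cells. Birc6 read 2228 and 575, against 1173, and its 5 measured probe sets ran from -1.03 to 0.58 in NK1.1− KO against control.

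Among substrates of apoptotic caspases and the nuclease listed with them, 4 of 9 were called lower and 0 higher in NK1.1+ KO against control (median 0.004). In that comparison 22.6% of all measured genes were called lower. None of 9 was called in NK1.1− KO against control (-0.02). The 4 were Acin1, Dffb, Dffa and Gsn. After centring 2 of 10 were called lower, Dffb and Acin1, where 12.7% of all genes were, and Lmnb1 was called higher. Dffb encodes the nuclease that cuts DNA in apoptosis and Dffa its inhibitor, which caspases cleave. Dffb read 34.8 in NK1.1+ KO cells and 101 in NK1.1− KO cells, against 103 in control cells. Acin1 read 84.0 and 393, against 408, by its brightest probe set, and -0.24 on the log2 scale in NK1.1+ KO against control by another.

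Intracellular serpins, a family of protease inhibitors, were called higher for 3 of 4 in NK1.1− KO against control (median 2.11). In NK1.1+ KO against control the count was 2 of 4 (1.23), with 0 lower in each comparison. The shares over all measured genes were 7.98% higher and 5.56% lower for the NK1.1− KO array. For the NK1.1+ KO array they were 9.73% and 22.6%, both arrays being set against control. Serpinb9, the granzyme B inhibitor's gene, read 919 in NK1.1+ KO cells and 1448 in NK1.1− KO cells, against 188 in control cells, and its other probe set differed from control by 2.63 and 3.27 on the log2 scale. Serpinb6b read 652 and 909, against 96.9. Serpinb6a read 111 and 320, against 133, and was above 2-fold in NK1.1− KO cells only. Between the KO arrays Serpinb9 (-0.66) and Serpinb6b (-0.48) were not called, and centring put them at -0.17 and 0.004.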

How the data were processed

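RNA of 3 sorted CD8+ T cell populations was measured on 1 Affymetrix array each, grouped by the sample titles. The deposited table holds 1 linear intensity per probe set and array, made with GCRMA 1.1.3 per the submitters' processing notes; the settings of that step were not stated. Log2 was taken of the deposited intensity. Symbols are those of the platform annotation, and a gene is represented by whichever of its single-symbol probe sets was brightest on average (mean log2 over the 3 arrays). Neighbours and names come from RefSeq tables of GRCm38.p6, and only the promoter windows carry coordinates. With 1 array per group no test was run, and precision is limited by that number. Where the lower value was raised to the level, a fold is written "at least". The calling code was run on simulated data with changes planted in bright genes only and with little noise. That run checks the code and says nothing about how reliable the calls given here are. Python 3.11.15, numpy 2.4.6 and pandas 2.3.3 were used.

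The members and the 20 gene lists (12 of pathways, 8 of cell type markers) were chosen with earlier results of these data known. All probe sets of the 6 caspases were taken, up to 3 genes per pathway list and comparison with the largest absolute difference could be named, and the 2 genes nearest to each caspase by the Euclidean distance of the log2 differences to control, without provisional symbols. Alternatives were another level, no level, an offset, the mean of all probe sets, no suffixed probe sets, quantile normalization, centring, and other thresholds.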

Additional observations from a re-analysis of the deposited data

How the results depend on the processing

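Casp1 and Casp4 stayed called higher in both KO fractions against control under all 9 alternatives. Casp8 stayed called lower in NK1.1+ KO against control under all 9. Several of these could not change the calls. Each of these genes has 1 probe set, unsuffixed and above the level on all arrays. Dropping the level, averaging probe sets or leaving out suffixed ones therefore returned the same values. A threshold of 1.5-fold cannot drop a 2-fold call. Casp1 ran from 2.75 to 3.97 in NK1.1+ KO and from 3.24 to 4.05 in NK1.1− KO against control, and Casp4 from 1.32 to 3.03 and from 2.25 to 3.53. The number of caspases called lower in NK1.1+ KO against control was 1 with the mean of all probe sets, 1 after centring and 1 at a threshold of 3-fold, since Casp6 dropped out each time. In NK1.1− KO against control it was 2 at 1.5-fold, with Casp2 added, and 0 at 3-fold, and between the KO arrays it was 2 at 1.5-fold (Casp4 and Casp6). The gap between inflammatory and apoptotic medians, for NK1.1+ KO and NK1.1− KO against control and then for the KO arrays, was 3.15, 3.37 and -0.27 with an offset of 32, 3.97, 4.38 and -0.41 when probe sets were averaged, and 4.19, 4.38 and -0.32 after quantile normalization. With the level set to 54.5, the 75th percentile of the values, it was 3.31 and 3.50 in the comparisons with control, where the control values of Casp1 and Casp4 lie below that level and the differences are lower bounds. No called value changed sign. Counts of calls over all genes moved by over 1.5 times under several settings, and so did the number of genes compared in some. For NK1.1− KO against control, 803 higher and 559 lower of 10057 genes (7.98% and 5.56%) were called as reported. With that level it was 492 and 309 of 7101 (6.93% and 4.35%). With the offset it was 473 and 237 of 18193 (2.6% and 1.3%). Averaged probe sets gave 533 and 356 of 9418 (5.66% and 3.78%). No paired analysis was possible because each group had 1 array, and no array could be left out. Without any level the differences of Casp1 and Casp4 were the same.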

Other observations

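Transcription factors of the interferon response, fixed as a list beside the caspases, numbered 7 measured genes. Of these, 2 were above and 2 below control by 2-fold in NK1.1+ KO cells (median log2 difference -0.47). In NK1.1− KO cells 1 was above and 0 below (-0.01). Of all measured genes, 9.73% were called higher and 22.6% lower in NK1.1+ KO against control, and 7.98% and 5.56% in NK1.1− KO. After centring, 2 of the 7 were higher and only Irf7 lower in NK1.1+ KO against control, with a median of -0.06. Irf8 read 198 in NK1.1+ KO cells and 228 in NK1.1− KO cells, against 89.5 in control cells, and was called in both comparisons, with 0.32 and 0.81 by a dimmer probe set. Irf7, which interferon induces, read 29.1 and 50.3, against 96.5, and was called lower in NK1.1+ KO cells. Irf1 was higher in NK1.1− KO (2167) than in NK1.1+ KO cells (1074) and read 2020 in control cells. Its log2 difference in NK1.1+ KO against NK1.1− KO was -1.01, and -0.53 after centring.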
